A study of Mus musculus with 10 samples.

Results

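Cardiomyocytes of the left ventricle are held together and to their matrix by a set of 33 adhesion genes described here, of 16504 named genes measured. The 33 were taken as a list of gene symbols in the array's platform annotation, and all 33 were measured. All were chosen for their place in the cell, with earlier results of these data known. They cover the intercalated disc and the costamere. The samples were mouse left ventricles split into a lateral and a septal wall, with total RNA of both walls of 1 heart labelled with Cy3 and Cy5 and hybridised together on 1 array. The dyssynchronous group had 4 hearts, which the labels number 1, 3, 4 and 5, from mice that the design text ties to an implanted pacemaker. The comparison sample was 1 control pool of RNA from synchronous mice, pooled within each wall. Its channels are labelled PNL and PNS, which were read as the lateral and the septal pool. The sources used here give no strain, sex, age, duration of pacing or number of pooled mice. Dyes were exchanged on a second array for every heart and for the pool, giving 10 arrays in all.

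The intercalated disc is the end-to-end junction of heart muscle cells. Adherens junctions there couple N-cadherin through catenins to actin, and desmosomes couple desmosomal cadherins through plakoglobin, plakophilin and desmoplakin to desmin. Costameres are the lateral attachments that tie Z-discs to the matrix, through the dystrophin-glycoprotein complex on one side and integrins with talin, vinculin and the ILK, PINCH and parvin trio on the other. Both structures carry force between cells, and inherited defects in many of these genes cause cardiomyopathy in humans.

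Each value below is the log2 of lateral over septal signal: above 0 the gene was higher in the lateral wall, below 0 in the septum. A heart's value is the mean of its 2 dye-swapped arrays. The log base and the direction of the deposited ratios are not stated. They were taken as log10 of Cy5 over Cy3 and turned by the dye label of the lateral RNA, so both scale and direction are likely rather than settled. The arrays give ratios only, so neither the level of any gene nor the cell makeup of a wall could be read from them. In such tissue RNA, fewer cells of a type and less RNA per cell cannot be told apart. Over all genes the median absolute deviation per array was 0.24 to 0.47 for the hearts and 0.22 to 0.33 for the pool. With few arrays, every value has limited precision.

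The first comparison asked whether the walls of a dyssynchronous heart differ in the expression of adhesion genes. The mean ratios of the 33 genes lay between -0.17 for Vcl and 0.18 for Dsg2, and their median was -0.02, against 0.0026 over all genes. The mean was above 0 for 15 of the 33 (50.9% of all genes) and below 0 for 18 (48.8% of all genes). None passed limma across all genes at a Benjamini-Hochberg adjusted p under 0.05 (0.0% of all genes passed, with 5.66% at an unadjusted p under 0.05 and 0 of the 33). For 28 of the 33 the 95% interval of the heart mean lay within 1.5-fold in either direction, a share of 84.8%, against 70.8% of all genes. The median of the 33 was 0.02, -0.04, -0.0032 and -0.02 in hearts 1, 3, 4 and 5, and -0.03 in the pool. An exact two-sided sign-flip permutation test of the 4 heart medians gave a p of 0.375, where 0.125 is the smallest that 4 hearts allow.

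**Figure D1:**
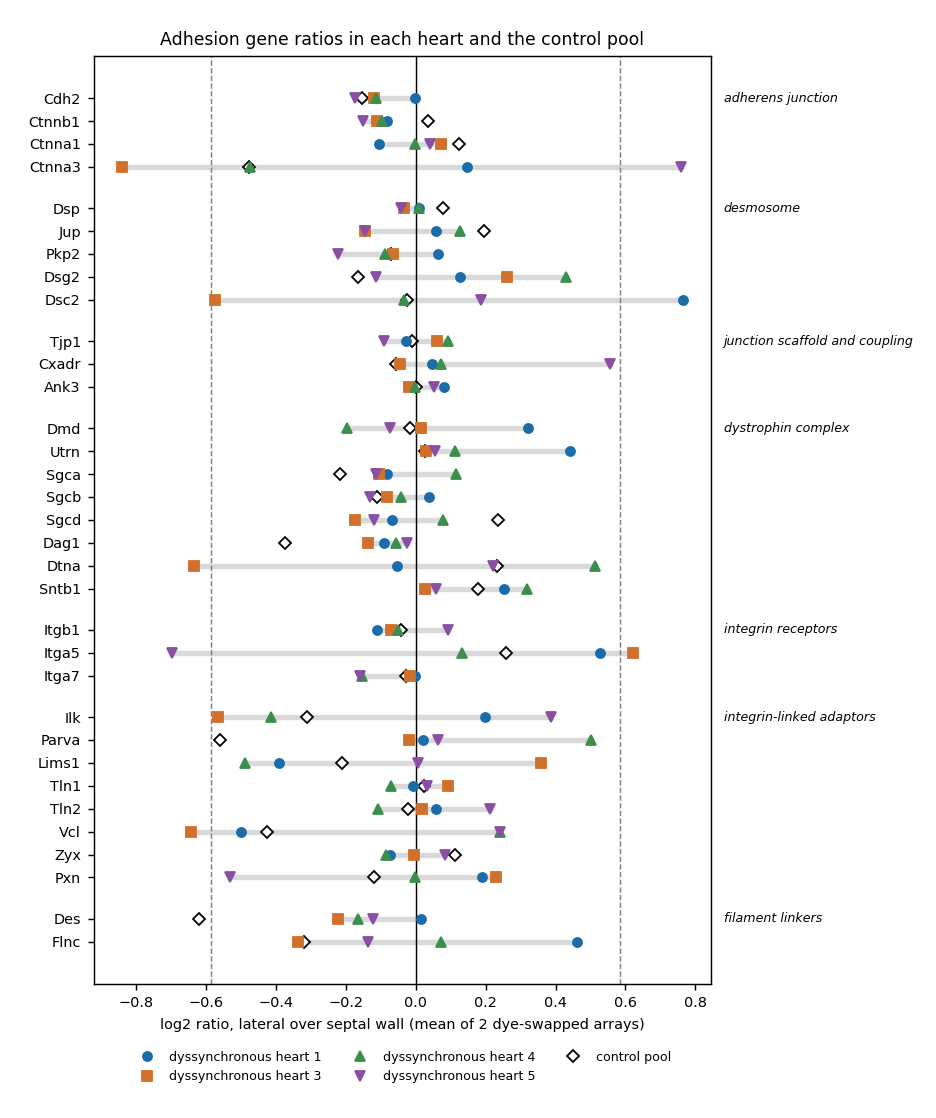
Log2 ratio of lateral over septal wall for each of the 33 adhesion genes, ordered by structure. Filled symbols are the 4 dyssynchronous hearts, open diamonds the control pool, grey bars the range of the hearts, and dashed lines mark 1.5-fold; only Ctnna3, Dsc2, Dtna, Itga5 and Vcl have a heart beyond these lines, and only Des has the pool beyond them.

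Among the adherens junction genes, Cdh2, which encodes N-cadherin, was at -0.0028, -0.12, -0.11 and -0.17 in hearts 1, 3, 4 and 5, with -0.15 in the pool. All hearts were thus on the septal side, heart 1 by next to nothing, and the pool lay within their range. The mean was -0.10 ± 0.07 (SD, n = 4 hearts), with 7 of 8 arrays on the septal side. Ctnnb1, which encodes beta-catenin, the link from the cadherin tail to alpha-catenin and a Wnt signalling factor, was at -0.08, -0.11, -0.098 and -0.15 in the hearts, with 0.03 in the pool. Its mean of -0.11 ± 0.03 (SD, n = 4 hearts) had the smallest p of the 33 and is 1.08-fold higher in the septum. It did not pass, with an adjusted p of 0.797 in limma and an interval of -0.24 to 0.02. The 4 hearts lay close together and all below the pool, and again 7 of 8 arrays were septal. Ctnna1, the alpha-catenin found in most tissues, was at 0.0013 ± 0.08 (SD, n = 4 hearts) and at 0.12 in the pool.

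Ctnna3, the alpha-T-catenin of heart muscle, had the widest spread of the 33. It was at 0.15, -0.84, -0.47 and 0.76 in hearts 1, 3, 4 and 5, with -0.48 in the pool. Hearts 3 and 5 were beyond 1.5-fold in opposite directions. The mean was -0.10 ± 0.70 (SD, n = 4 hearts), and 94.5% of all genes had a smaller spread between hearts. The arrays behind these values followed the dye: with lateral RNA in Cy5 they were at -0.68, -1.68, -1.64 and -0.05 in hearts 1, 3, 4 and 5, and with lateral RNA in Cy3 at 0.98, 0, 0.69 and 1.57. The 0 in heart 3 is an exact 0, whose meaning is not stated.

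Desmosome genes lay close to 0 except for the desmosomal cadherins. Dsp, which encodes desmoplakin, the anchor of desmin at the desmosome, was at 0.0097, -0.03, 0.0085 and -0.04 in hearts 1, 3, 4 and 5, with 0.08 in the pool. Its SD between hearts of 0.03 was the smallest of the 33 (mean -0.01, n = 4 hearts), and only 1.72% of all genes varied less. In all 4 hearts, though, the Dsp value averaged small readings of opposite sign. The means were 0.07 with lateral RNA in Cy5 and -0.10 with lateral RNA in Cy3. The interval of the Dsp heart mean, -0.14 to 0.11, excludes a difference of 1.5-fold between the walls in either direction. Jup, which encodes plakoglobin, was at 0.06, -0.14, 0.13 and -0.14 in the hearts, with 0.20 in the pool. The hearts were split in direction and all lay below the pool, whose arrays were at -0.06 and 0.45. Pkp2, the plakophilin of heart muscle desmosomes, was at -0.08 ± 0.12 (SD, n = 4 hearts) and at -0.07 in the pool.

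The desmosomal cadherins were less even. Dsg2, which encodes desmoglein, was at 0.13, 0.26, 0.43 and -0.11 in hearts 1, 3, 4 and 5, with 7 of 8 arrays on the lateral side. Its mean of 0.18 ± 0.23 (SD, n = 4 hearts) was the highest of the 33, against -0.17 in the pool, and the interval of -0.10 to 0.45 includes 0. Dsc2, which encodes desmocollin, its partner, was at 0.77, -0.57, -0.035 and 0.19 in the hearts, with -0.025 in the pool. Heart 1 was beyond 1.5-fold on the lateral side and heart 3 just short of it on the septal side, so the mean of 0.09 ± 0.55 (SD, n = 4 hearts) describes neither. The 2 arrays of heart 3 were at 0.01 and -1.16, so its value came from the array with lateral RNA in Cy3.

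Of the other disc genes, Tjp1, the scaffold protein ZO-1 at the rim of gap junctions, was at -0.03, 0.06, 0.09 and -0.09 in hearts 1, 3, 4 and 5, with -0.01 in the pool. The hearts lay on both sides of 0 and around the pool. Tjp1 was lateral on all 4 heart arrays with lateral RNA in Cy5 and septal on the other 4, with means of 0.22 and -0.21. Ank3, the ankyrin that anchors sodium channels at the disc, was at 0.03 ± 0.05 (SD, n = 4 hearts) and at 0.0003 in the pool.

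Cxadr, the coxsackievirus and adenovirus receptor of the disc, shows how far 2 features of a gene can differ. As a gene it was at 0.05, -0.045, 0.07 and 0.56 in hearts 1, 3, 4 and 5, with -0.06 in the pool. Feature 9335 alone was at -0.09, -0.18, 0.08 and 0.23, and feature 20250 at 0.19, 0.09, 0.07 and 0.88. The high value of heart 5 in feature 20250 was the mean of 3.12 on the array with lateral RNA in Cy5 and -1.35 on its dye swap, so it is an average of opposite readings.

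The dystrophin complex ties cortical actin to laminin through dystrophin, the dystroglycans and the sarcoglycans. Dmd, which encodes dystrophin, was at 0.32, 0.02, -0.20 and -0.07 in hearts 1, 3, 4 and 5, with -0.02 in the pool, with a mean of 0.02 ± 0.22 (SD, n = 4 hearts). Its 2 features differed in heart 1, at -0.11 for feature 20434 and 0.75 for feature 21311. The value of feature 21311 again averaged opposite readings, -0.65 and 2.15. Utrn, which encodes utrophin, the relative of dystrophin, was at 0.44, 0.03, 0.11 and 0.055 in the hearts, with 0.02 in the pool. All hearts were lateral, heart 1 well above the other 3, but only 5 of 8 arrays were lateral. The mean was 0.16 ± 0.19 (SD, n = 4 hearts, adjusted p 0.797 in limma). The Utrn values of hearts 3, 4 and 5 and of the pool averaged opposite readings. These were 1.13 and -1.02 in heart 5 and 0.90 and -0.85 in the pool.

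Dag1, which encodes dystroglycan, the laminin receptor of the complex, was at -0.09, -0.14, -0.06 and -0.025 in hearts 1, 3, 4 and 5, with -0.37 in the pool. The hearts were all slightly septal and all above the pool. Only 5 of 8 heart arrays were septal, and the means were -0.24 with lateral RNA in Cy5 and 0.08 with lateral RNA in Cy3. Sntb1, a syntrophin that binds dystrophin, was at 0.25, 0.03, 0.32 and 0.06 in the hearts, with 0.18 in the pool. All hearts and the pool were lateral, with a heart mean of 0.16 ± 0.14 (SD, n = 4 hearts) and 6 of 8 arrays lateral. It did not pass (adjusted p 0.797 in limma, interval -0.04 to 0.36).

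The sarcoglycans, membrane partners of dystrophin, had small ratios in the hearts: Sgca averaged -0.05 ± 0.11, Sgcb -0.05 ± 0.07 and Sgcd -0.07 ± 0.11 (SD, n = 4 hearts). Sgcd was at -0.07, -0.18, 0.08 and -0.12 in hearts 1, 3, 4 and 5, with 0.24 in the pool, above every heart. Sgca, at -0.22 in the pool, lay below every heart. Dtna, which encodes alpha-dystrobrevin, was at -0.05, -0.63, 0.51 and 0.22 in the hearts, with 0.23 in the pool. Heart 3 was beyond 1.5-fold on the septal side and heart 4 close to that on the lateral side.

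Integrins are the other matrix receptors of the costamere. Itgb1, the beta subunit shared by most integrins of heart muscle, was at -0.11, -0.07, -0.05 and 0.09 in hearts 1, 3, 4 and 5, with -0.04 in the pool. The hearts lay around 0 with the pool among them, and the interval of the mean was -0.19 to 0.12. Itga7, the laminin-binding alpha subunit of mature muscle, was at -0.001, -0.016, -0.15 and -0.16 in the hearts, with -0.03 in the pool. All hearts were on the septal side, though hearts 1 and 3 were almost at 0. Itga5, the fibronectin-binding alpha subunit, was at 0.53, 0.62, 0.13 and -0.70 in the hearts, with 0.26 in the pool. Heart 3 was beyond 1.5-fold laterally and heart 5 beyond it septally, and the value of heart 5 averaged 0.27 and -1.67.

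The adaptors between integrins and actin split into steady and variable genes. Tln1, the talin that activates integrins, was at 0.01 ± 0.07 (SD, n = 4 hearts) and at 0.02 in the pool, and Zyx, the LIM protein zyxin, at -0.02 ± 0.08 (SD, n = 4 hearts), with a pool value of 0.11. Tln2, the muscle talin, averaged 0.04 ± 0.13 (SD, n = 4 hearts) over 3 features. Of these, feature 18411 had exact zeros on 4 of 10 arrays, both of heart 1 and both of the pool. The other values of feature 18411 followed the dye. Vcl, which encodes vinculin, the actin linker of both disc and costamere, was at -0.50, -0.64, 0.24 and 0.24 in hearts 1, 3, 4 and 5, with -0.43 in the pool. Hearts 1 and 3 and the pool were septal, hearts 4 and 5 lateral. The single Vcl feature ranged from -1.67 to 1.47 over the 8 heart arrays, so its ratio was poorly determined here.

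The proteins ILK, PINCH and parvin form 1 complex on the integrin tail, but the ratios of Ilk, Lims1 and Parva were not alike from heart to heart. Ilk, the scaffold kinase-like protein, was at 0.20, -0.57, -0.42 and 0.39 in hearts 1, 3, 4 and 5, and Lims1, which encodes PINCH, at -0.39, 0.36, -0.49 and 0.0050. Parva, which encodes alpha-parvin, was at 0.02, -0.02, 0.50 and 0.06 in the hearts, with -0.56 in the pool. Ilk and Lims1 were at -0.31 and -0.21 in the pool. Heart 4 was thus septal for Ilk and Lims1 and lateral for Parva, but both septal values averaged opposite readings. With lateral RNA in Cy5 and then in Cy3, heart 4 was at 0.1691 and -0.9999 for Ilk and at 0.45 and -1.43 for Lims1. Parva was lateral on both arrays, at 0.73 and 0.27. The Ilk value of heart 3 also averaged opposite readings, 0.09 and -1.22. Whether these genes differ apart from the dye was not tested. Pxn, which encodes the focal adhesion protein paxillin, was at -0.03 ± 0.35 (SD, n = 4 hearts).

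Des and Flnc link these sites to the filaments inside the cell. Des, which encodes desmin, the intermediate filament of muscle, was at 0.02, -0.22, -0.17 and -0.12 in hearts 1, 3, 4 and 5, with -0.62 in the pool. The heart mean was -0.12 ± 0.10 (SD, n = 4 hearts), with 3 of 4 hearts on the septal side. Flnc, the muscle filamin, was at 0.01 ± 0.34 (SD, n = 4 hearts) and at -0.32 in the pool.

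Agreement of direction between hearts was close to that of genes in general. Of the 33, 2 were lateral in all 4 hearts (7.80% of all genes were) and 4 were septal in all 4 hearts (7.63% of all genes). On all 8 heart arrays 0 of the 33 had 1 direction, against 1.33% of all genes. Cdh2, Ctnnb1 and Dsg2 had 1 direction on 7 arrays, where 6.17% of all genes had it on at least 7. Ratios beyond 1.5-fold in at least 1 heart were found in 5 of the 33, or 15.2%, against 30.9% of all genes, and in a heart or the pool in 6, or 18.2%, against 33.9% of all genes. In at least 2 hearts there were 2, Ctnna3 and Itga5 (8.71% of all genes), and both were beyond it in opposite directions (4.37% of all genes).

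**Figure D2:**
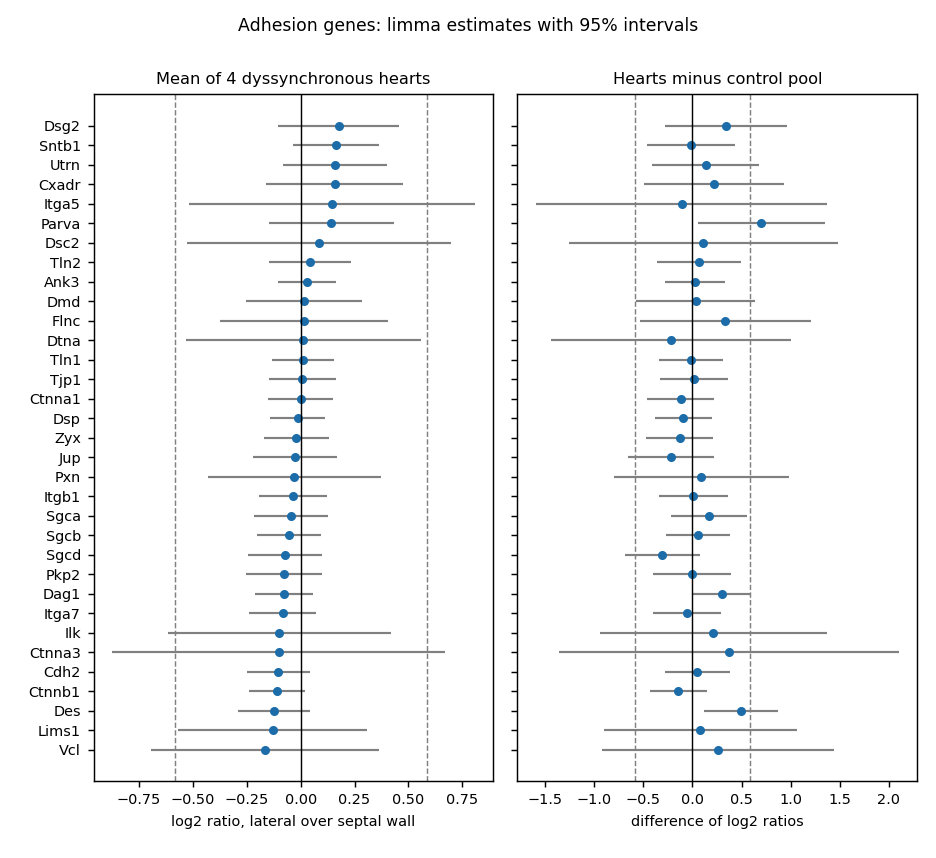
limma estimates for the 33 adhesion genes, sorted by heart mean, with 95% intervals; the left panel is the mean log2 ratio of lateral over septal wall in 4 dyssynchronous hearts, the right panel the hearts minus the control pool, and dashed lines mark 1.5-fold. On the left every interval includes 0; on the right those of Des and Parva do not, before adjustment for the number of genes.

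The spread between hearts divided the genes. The SD over the 4 hearts had a median of 0.13 over the 33 and of 0.23 over all genes. Of the 33, 15 lay below the lower quartile of all genes (0.11), among them Dsp, Ctnnb1, Ank3, Dag1, Tln1, Sgcb, Cdh2 and Ctnna1. At the other end, 6 lay above the upper quartile (0.40), namely Ctnna3, Itga5, Dsc2, Dtna, Vcl and Ilk. On every one of the 8 heart arrays 17 of the 33 stayed within 1.5-fold, against 36.1% of all genes. No intensities were analysed here, so whether the variable features were dim was not tested.

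**Figure D3:**
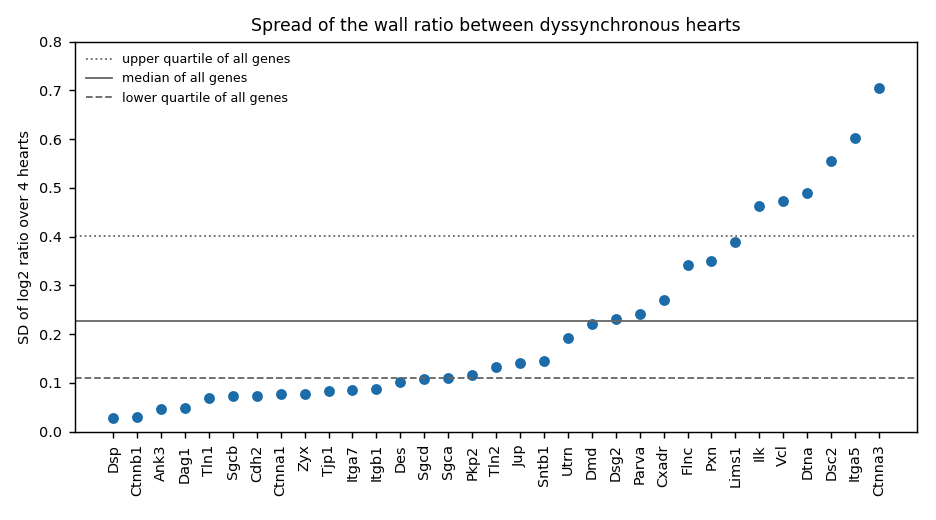
SD of the log2 ratio of lateral over septal wall over the 4 dyssynchronous hearts for each of the 33 adhesion genes, in rising order. Horizontal lines mark the lower quartile, median and upper quartile of all genes (0.11, 0.23 and 0.40); Dsp and Ctnnb1 are lowest and Ctnna3 highest.

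For many of these genes, as for genes in general, the mean ratio had opposite signs on the 2 dye orientations. The mean dye effect over the 4 hearts, which is the Cy5-lateral minus the Cy3-lateral array divided by the 2 arrays, was larger than the mean wall ratio for 23 of the 33, or 69.7%, against 67.5% of all genes. It was largest for Ctnna3, at -0.91, and Lims1, at 0.87. Lims1 averaged 0.74 on the heart arrays with lateral RNA in Cy5 and -0.998 on those with lateral RNA in Cy3, and Dmd -0.47 and 0.50. Cxadr averaged 0.65 and -0.34 in the same order. Des was at -0.32 with lateral RNA in Cy5 and 0.07 with lateral RNA in Cy3, and Parva at -0.045 and 0.33, so neither had a direction that both orientations shared.

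Wall and dye effects would exchange places if the authors had already turned the deposited values to lateral over septal. Without any turning, the correlation of both arrays over all genes was 0.30 for heart 1, 0.35 for heart 3, 0.28 for heart 4, 0.17 for heart 5 and 0.30 for the pool. Some genes with large turned ratios, picked after their values were seen, went with the dye labels instead. Genes picked in this way tend to agree between dye swaps once turned, so they do not by themselves settle the direction. Myl7, the atrial myosin light chain, averaged -4.65 on heart arrays with lateral RNA in Cy5 and -4.44 on those with lateral RNA in Cy3 once turned, and was septal on 8 of 8. Without turning, its sign was therefore opposite on the 2 arrays of every heart, while its pool arrays were at -0.02 and -0.22. Myl4 averaged -2.22 and -2.05 in the same order, Dkk3 -2.46 and -2.96, and the smooth muscle genes Cnn1 1.15 and 0.55 and Lmod1 1.14 and 0.87, each with 1 direction on 8 of 8 arrays. For these genes the deposited ratios followed the dye, which values not turned to 1 wall over the other would do. The turned values are the ones used throughout. The values without turning are given for what they show of the dye. Without turning, Ctnna3 would be at -0.83, -0.84, -1.17 and -0.81 in hearts 1, 3, 4 and 5, with -0.74 in the pool. Lims1 would be at 0.97, 0.97, 0.94 and 0.59 in the hearts, with 0.85 in the pool. Both would then have 1 direction in all hearts and in the pool, and neither would pass limma (adjusted p 0.156 and 0.167). Tjp1 would average 0.22 and Dmd -0.49 in the hearts. Cdh2 would be at 0.05 and Ctnnb1 at -0.06, so both would stay near 0. The differences of Des and Parva from the pool, described below, would be 0.02 and 0.05 without turning.

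**Figure D4:**
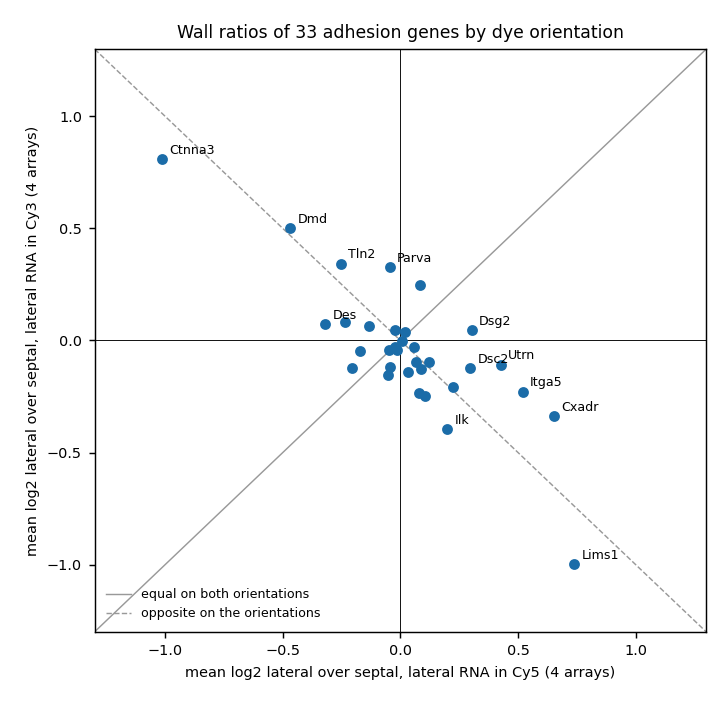
Mean log2 ratio of lateral over septal wall over the 4 heart arrays with lateral RNA in Cy5 (horizontal) and the 4 with lateral RNA in Cy3 (vertical), 1 point for each of the 33 adhesion genes. A gene with the same wall ratio in both orientations lies on the solid line; Ctnna3, Lims1, Dmd and Cxadr lie near the dashed line of opposite readings.

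**Figure D5:**
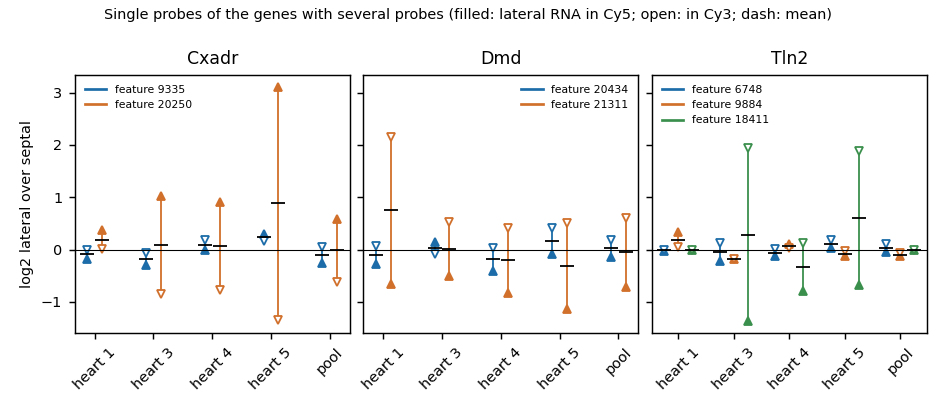
Log2 ratio of lateral over septal wall of each single feature of Cxadr, Dmd and Tln2 in the 4 dyssynchronous hearts and the control pool. Filled triangles are arrays with lateral RNA in Cy5, open triangles arrays with lateral RNA in Cy3 and dashes their mean. Features 20250, 21311 and 18411 spread more between orientations than the other features of the same genes. The exception is feature 18411 in heart 1 and the pool, where both arrays are exactly 0.

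The second comparison asked whether the wall ratios of adhesion genes in dyssynchronous hearts depart from those in synchronous animals. The clearest separations were in Des, Parva and Dag1, each nearer 0 in the hearts and lower laterally in the pool, and none passed. Des differed by 0.50 from the pool, or 1.41-fold, with all 4 hearts above it, an interval of 0.12 to 0.87 and an adjusted p of 0.956 in limma (0.614 to 1.00 over the alternatives). The pool arrays of Des were at -0.84 with lateral RNA in Cy5 and -0.40 with lateral RNA in Cy3. Parva differed by 0.70 (interval 0.05 to 1.35, adjusted p 1.00 in limma), with pool arrays at -0.79 and -0.33, and without heart 4 the difference was 0.58. Dag1 differed by 0.30 (interval -0.0061 to 0.60), with pool arrays at -0.62 and -0.13.

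In the other direction Sgcd lay -0.31 from the pool (interval -0.69 to 0.07), with 4 of 4 hearts below it and pool arrays at 0.14 and 0.34. The Sgcd value of each of the 4 hearts averaged arrays of opposite sign. Its difference from the pool was -0.03 with lateral RNA in Cy5 alone and -0.58 with lateral RNA in Cy3 alone. In all, 7 of the 33 had all 4 hearts above the pool (17.7% of all genes did) and 6 had all 4 below it (18.1% of all genes). limma called 0 of the 33 and 0.0% of all genes. At an unadjusted p under 0.05 there were 2 of the 33, Des and Parva, and 4.74% of all genes. The pool is a single replicate assumed to vary like 1 heart, so the intervals of these differences are wide. For Dsp the interval was -0.38 to 0.19 and for Cdh2 -0.28 to 0.38, both inside 1.5-fold, while for Ctnna3 it ran from -1.36 to 2.11.

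In the pool itself 21 of the 33 were below 0, against 45.5% of all genes, and 12 above 0, against 49.0%. Des was the 1 gene that lay beyond 1.5-fold there (7.11% of all genes did). Both pool arrays had the same sign for 12 of the 33, or 36.4%, against 35.7% of all genes. Of 12 ventricular muscle markers, 11 were below 0 in the pool, a single replicate, against 45.5% of all genes. For 8 of the 12 all 4 hearts lay above the pool, against 17.7% of all genes. These markers had a list median of 0.0026 for the hearts and -0.14 for the pool. Their part in the ratios of Des, Parva and Dag1 was not tested. Smooth muscle and pericyte markers, a list that also holds Des, had a median of 0.14 for the hearts and 0.09 for the pool.

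Some atrial muscle markers had far larger septal excesses than any adhesion gene. Myl7 was at -5.18, -3.36, -3.53 and -6.10 in hearts 1, 3, 4 and 5, with -0.12 in the pool, a mean 23.3-fold higher in the septum (adjusted p 0.732 in limma). Dkk3 averaged -2.71 ± 1.13 (SD, n = 4 hearts), against -0.59 in the pool. Myl4 averaged -2.14, between -4.17 and -0.95 in the hearts, against -0.47 in the pool. All 4 hearts were septal for these genes and all lay below the pool. The other atrial markers were less uniform: Nppa, which encodes atrial natriuretic peptide, was at -1.35, 0.20, -0.08 and -2.27 in the hearts, with 0.02 in the pool. Sln averaged -0.04, Pam -0.10 and Bmp10 -0.18, each with hearts on both sides of 0. Of the 9 markers, 5 were septal in all 4 hearts (7.63% of all genes). Over all 9 markers the median was -0.38 in heart 1, -0.41 in heart 3, -0.27 in heart 4, -1.48 in heart 5 and 0 in the pool. The part of this atrial signal in the adhesion gene ratios was not tested.

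A further 97 of 111 listed genes of the same structures were measured, and 0 passed limma in either direction in either comparison. Their median was 0.02 for the hearts and -0.05 for the pool. The pool value furthest from 0 was 2.16, for Dtnb of the dystrophin complex, with all 4 hearts below it. Its pool arrays were at 4.25 with lateral RNA in Cy5 and 0.07 with lateral RNA in Cy3. The hearts differed from the pool by -2.14 for Dtnb. Of the 97, 7 were lateral in all 4 hearts and 6 were septal in all 4, shares close to those of all genes. Among 31 junction genes, Jam2, a junctional adhesion molecule, was at 0.19, 0.17, 0.24 and 0.23 in hearts 1, 3, 4 and 5, with 0.12 in the pool. It was lateral on all 8 heart arrays (mean 0.21 ± 0.04, SD, n = 4 hearts, adjusted p 0.797 in limma). Its relative Jam3 averaged 0.11 ± 0.10 (SD, n = 4 hearts), with 0.22 in the pool. Nrap, which links myofibril ends to the disc, was at -0.12, -0.40, -0.45 and -0.60 in the hearts, with -0.24 in the pool, septal on 7 of 8 arrays. Pcdh7, a protocadherin, averaged -0.24 ± 0.23 (SD, n = 4 hearts).

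Among 19 further genes of the dystrophin complex, Sspn, the sarcoglycan partner sarcospan, averaged -0.09 ± 0.06 and Agrn, the dystroglycan ligand agrin, 0.13 ± 0.15 (SD, n = 4 hearts each). Among 47 further integrin adhesion genes, Lims2, the second PINCH gene, was at 0.14, 0.28, 0.11 and 0.10 in hearts 1, 3, 4 and 5, with 0.0022 in the pool. It was lateral on all 8 heart arrays, whereas Lims1 was lateral on 4. Itgb1bp1, an integrin tail-binding protein, averaged 0.11 ± 0.08 (SD, n = 4 hearts). The integrin beta subunits Itgb5 and Itgb4 were septal in all hearts. Itgb5 averaged -0.18 ± 0.11 (SD, n = 4 hearts). Itgb4 was at -0.16, -0.09, -1.42 and -1.54 in hearts 1, 3, 4 and 5, with -0.44 in the pool, so hearts 4 and 5 carried its mean of -0.80. With the values taken as already turned, Jam2 would be at 0.05, Nrap at -0.10, Pcdh7 at 0.30, Lims2 at -0.04 and Itgb4 at 0.55 in the mean of the hearts. Apart from Dtnb, the adjusted p in limma was 0.797 for each of the genes named in these lists.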

How the data were processed

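The deposited values are log10 ratios of the 2 channels of each array, by the reading given above; per the submitters' processing notes the images were read with Agilent Feature Extraction 7.5. The sources used here do not give the dye normalization, filters or background handling. Every array had a median of 0. Exact zeros made up 7.69% to 15.1% of features, so a median of 0 does not settle whether the ratios were centred.

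Of 22393 features, 18218 had 1 gene symbol, 16 several and 4159 none. Ratios were multiplied by 3.32 to log2 and given the sign of lateral over septal wall from the dye labels, features of a gene were averaged, and then the 2 arrays of a heart. All 5 averaged samples entered 1 fit with limma 3.58.1 (R 4.3.3) over 16504 genes, with eBayes moderation, two-sided tests and Benjamini-Hochberg adjustment over all genes. Intervals are limma's 95% intervals for 1 gene. The fit was tested on simulated data. The genes and lists were chosen with earlier results of these data known. Values in every heart are given for genes with 1 direction in all hearts, beyond 1.5-fold in a heart or the pool, among the 4 smallest p of a comparison, or among 7 well-known members; up to 4 further genes a list are named by smallest p and 1 direction in all hearts. Dsg2, Cxadr, Ilk and Lims1 lie outside that rule and were given by heart after their values were seen. So were the marker genes Myl7, Myl4, Dkk3, Nppa, Cnn1 and Lmod1. Dtnb also lies outside the rule and was named for its pool value after that value was seen. The alternatives were the deposited sign, centring, scaling, each orientation, zeros as missing, single features, the 4 hearts alone, single arrays with a dye term, robust moderation, leaving out each heart, a log2 scale as deposited and other fold limits.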

Additional observations from a re-analysis of the deposited data

Results flagged for a closer look

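In 43 sets of 4 hearts, 2 had a heart far from the other 3. Chance marks about 1 in 20 sets, so 2.15 are expected. The sets were the adhesion genes and the 10 further genes named by smallest p and 1 direction in all hearts. Sgca was at 0.1156 in heart 4 and between -0.11 and -0.08 in the other hearts. Parva reached 0.5011 in heart 4, while the remaining hearts lay between -0.02 and 0.06. Ctnnb1 was septal in all 4 hearts and slightly lateral in the pool, a difference of -0.1449, but its pool arrays were at -0.034 and 0.10, and limma gave an adjusted p of 1.00 for that difference. With the values taken as already turned the difference was 0.0064.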

How the results depend on the processing

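Under all alternatives run, 0 of the 33 adhesion genes passed limma in either comparison. Over all genes 0 passed in both comparisons, except that fitting single arrays, with dye as a term and heart as the replicate block, gave 20 for lateral against septal wall and 3 for hearts against the pool; its estimated correlation within hearts was -0.05, so both arrays of 1 heart counted as nearly separate replicates. The number of adhesion genes with 1 direction in every heart, 6, became 13 with the values taken as already turned, 13 with the Cy5-lateral arrays alone, 11 with the Cy3-lateral arrays alone, and 8 to 10 without 1 heart, where fewer hearts have to agree. It was 10 without heart 5. The number beyond 1.5-fold in a heart or the pool, 6, became 11, 17 and 13 under the same 3 settings, 15 at a limit of 0.32 on the log2 scale, 0 at a limit of 2-fold, 0 if the deposited values are log2 already, and 4 to 6 without 1 heart. The median of -0.0197 became 0.0372 with the values taken as already turned, 0.0181 with lateral RNA in Cy5 alone and -0.0484 with lateral RNA in Cy3 alone, and lay between -0.0421 and -0.0094 without 1 heart. Of the 33 mean ratios, 17 changed sign with the values taken as already turned, 11 in the Cy5-lateral and 12 in the Cy3-lateral arrays, 3 to 7 without 1 heart and 3 with arrays scaled to a common spread. Taking exact zeros as missing turned 0. Centring and robust moderation also turned 0 but could not have done otherwise. Every array median was already 0, and robust moderation leaves the mean ratios unchanged. The signal over background is not known here, and what depends on it was not tested.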
